A study of Mus musculus with 12 samples.

Results

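The genes described here build and run the primary cilium, the single antenna-like projection of most resting mammalian cells. They are 33 named mouse genes: 11 subunits of the intraflagellar transport complex IFT-B, 3 of IFT-A, the heavy chain of the dynein-2 motor, 7 subunits of the BBSome, 2 BBS chaperonins, 7 transition zone genes and 2 genes of ciliary membrane traffic and signalling. They were chosen by name and not by measured values, as a readout of cells leaving the cell cycle. Earlier results of these data were known when they were chosen. A probe was matched for 30 of the 33, out of 32678 genes or accessions with a probe in the series, and Bbs1, Bbs10 and Mks1 are not analysed here.

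The cilium grows from the mother centriole when a cell stops dividing and is resorbed before mitosis, and NIH3T3 fibroblasts are a standard line in which this is studied, usually after serum withdrawal. IFT trains carry cargo along its microtubules: IFT-B with the kinesin-2 motor outward to the tip, IFT-A with dynein-2 back to the base. The BBSome moves membrane proteins out of the cilium, the transition zone is the gate at its base, and Hedgehog signalling in vertebrates depends on all of these.

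RNA was measured in NIH3T3, an established mouse fibroblast line, grown in DMEM with 10% BCS, so serum was present in every group. Cultures were treated for 18 h with 2 µM PP242, with 50 nM rapamycin, or with the solvent DMSO, with 4 arrays per group on 1-colour Agilent arrays. The submitters describe the 4 experiments of each condition as independent. Rapamycin blocks the kinase complex mTORC1 through an allosteric site, whereas PP242 occupies the ATP pocket of mTOR and reaches mTORC2 as well. A separate protocol field gives the PP242 dose in mM instead of µM. Each compound was used at 1 dose, and the doses differ, so differences between the treatments are not matched-dose comparisons of the molecules.

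Levels are given as log2 of the background-subtracted spot signal relative to the 75th percentile of the same array, so 0 is that percentile and a step of 1 is a doubling. They do not compare 1 probe with another. Signals on 8 arrays (PP242 2 and 3, rapamycin 1, 2 and 4, DMSO 1, 3 and 4) spanned a ratio of 261 to 420 between their 75th and 25th percentiles, and 55.8% to 60.5% of the probes exceeded background clearly by the scanner software's own mark, called well above background here. Dim probes were raised on PP242 1 and 4, rapamycin 3 and DMSO 2, where that ratio was 7.12 to 51.1 and the marked share 78.0% to 97.9%. Results are therefore given from the 8 arrays and, beside them, from all 12. Differences are log2 differences ± SE, with adjusted p-values from limma (two-sided, Benjamini-Hochberg over all genes tested), and a gene passed when its adjusted p was under 0.05. Every one of the 8 arrays marked 8 of 9 fibroblast markers with a probe as well above background, against 0 of 7 endothelial, 1 of 8 epithelial and 2 of 7 leukocyte markers. The same held for all 30 cilium genes, so none was lost to the filter on dim probes.

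Promoters were searched because RFX transcription factors, known regulators of cilium genes, bind a motif called the X-box. RefSeq promoter sequences (GRCm38.p6, 250 bases before to 50 after the gene start) were matched for 27 of the 30 genes. The hexamer GTTGCC, the core of an X-box arm, was sought on both strands and occurred in 12 of the 27 (44.4%), against 14.1% of 27025 genes with a promoter sequence. A match to the X-box, sought on both strands and overlapping the hexamer in many cases, occurred in 8 of the 27 (29.6%), against 3.4% of those genes. The windows below belong to 5 of the genes that were higher with PP242 and are shown so that the motif can be seen beside the values. They read 5′ to 3′ on the gene's strand, with the matched motif in capitals.
Bbs4 (X-box, chr9:59353464-59353493, minus strand): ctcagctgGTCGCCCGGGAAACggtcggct
Tctn1 (X-box, chr5:122264411-122264440, minus strand): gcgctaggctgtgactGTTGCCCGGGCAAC
Ift88 (hexamer, chr14:57424080-57424109, plus strand): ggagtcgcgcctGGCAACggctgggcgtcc
Ift172 (hexamer, chr5:31291097-31291126, minus strand): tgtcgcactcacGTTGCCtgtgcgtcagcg
Dync2h1 (hexamer, chr9:7177009-7177038, minus strand): catagcgacggagcttGGCAACtgctgagt

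These 5 motifs lie 1 to 37 bases after the annotated start. The following 2 windows come from genes that did not pass in the comparison of PP242 with DMSO, and show that the motif was not confined to genes that moved.
Bbs7 (X-box, chr3:36613489-36613518, minus strand): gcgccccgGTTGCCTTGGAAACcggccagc
Ahi1 (X-box, chr10:20952560-20952589, plus strand): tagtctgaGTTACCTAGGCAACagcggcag

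Of the genes with a promoter sequence, 7 were higher with PP242, and 4 of these had the hexamer and 2 the X-box. Among 19 that passed in neither direction, 8 had the hexamer and 6 the X-box. The 1 that was lower, Cep290, had neither. A match describes these letters and is no evidence of binding.

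The comparison of PP242 with DMSO asks how the cilium genes stand when the mTOR kinase is inhibited. A subset rose, led by Bbs4, Ift88, Ift81 and Ift172, each 2.33 to 2.85 times as high as in DMSO cultures. On the 8 arrays, 9 of the 30 genes were higher, 2 were lower and 19 did not pass. Over all 19624 genes tested, 12.9% were higher and 13.3% lower, against 30% and 6.67% of the cilium genes. The median difference of the 30 genes was 0.17, and 18 were positive and 12 negative, while the median of all genes was -0.01. PP242 and DMSO arrays did not overlap for 15 genes upward and 6 downward, against 29.7% and 29.2% of all genes. On all 12 arrays only Bbs4 passed, where 0.382% of 23801 genes were higher and 0.0588% lower. On 12 arrays 5 of the 30 had an unadjusted p under 0.05, against 9.58% of all genes. With slide as a block on the 12 arrays 0 of the 30 passed, and 0% of all genes did. With 1 array of the 12 left out, 0 passed when it was any DMSO array. The same held for rapamycin 1 or 2 and for PP242 1, 2 or 3. Over all genes 0% passed without DMSO 1, 2 or 3 or without PP242 1, 2 or 3. Without DMSO 4, rapamycin 1 or rapamycin 2, 0.189%, 0.172% and 0.202% of all genes were higher. In these 3 fits 0.0252%, 0.0252% and 0.0294% were lower. Without rapamycin 3, 6 were higher, against 6.94% of all genes.

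IFT-B supplied 5 of the 9 rises and 1 of the 2 falls. Ift81, which with Ift74 forms the tubulin-binding module of the train, measured 1.09 and 0.92 on PP242 2 and 3, -0.05, -0.13 and 0.11 on rapamycin 1, 2 and 4, and -0.32, -0.39 and -0.12 on DMSO 1, 3 and 4. On the arrays with raised dim probes it was 0.78 and 0.23 for PP242 1 and 4, -1.44 for rapamycin 3 and -0.77 for DMSO 2. All 4 PP242 arrays lay above all DMSO and rapamycin arrays. The difference from DMSO was 1.29 ± 0.13 (2.44-fold, limma adjusted p = 0.00129), and 1.16 ± 0.37 on 12 arrays (limma adjusted p = 0.245). Its second probe gave 1.43 ± 0.18.

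Ift88, a core subunit whose loss leaves mouse cells without cilia, measured -0.46 and -0.35 on PP242 2 and 3, -1.42, -1.24 and -1.45 on rapamycin 1, 2 and 4, and -1.86, -1.75 and -1.52 on DMSO 1, 3 and 4. PP242 arrays 1 and 4 gave 0.05 and 0.66 and rapamycin 3 gave 1.81, while the spot on DMSO 2 was left out as an outlier. PP242 lay above DMSO on every array with a value, but the raised rapamycin 3 array lay above all PP242 arrays. The difference between PP242 and DMSO was 1.31 ± 0.13 (2.47-fold, limma adjusted p = 0.00132), and 1.69 ± 0.74 on 12 arrays (limma adjusted p = 0.51).

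Ift172, a large peripheral IFT-B subunit that acts at the turnaround of trains, measured 0.09 and 0.38 on PP242 2 and 3, -0.75, -0.72 and -0.51 on rapamycin 1, 2 and 4, and -1.23, -1.06 and -0.68 on DMSO 1, 3 and 4. PP242 1 and 4 gave -0.14 and -0.31 and rapamycin 3 gave -1.76, with the DMSO 2 spot again left out. PP242 was above both other groups throughout. It differed from DMSO by 1.22 ± 0.19 (2.33-fold, limma adjusted p = 0.00554), and by 0.99 ± 0.35 on 12 arrays (limma adjusted p = 0.332). A dimmer second probe gave 1.22 ± 0.17, and another one, well above background on 2 of the 8 arrays, gave 0.52 ± 0.23.

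Smaller rises were seen for Ift52 and Ift46, both of the IFT-B core. Ift52 measured 2.04 and 2.11 on PP242 2 and 3, 1.58, 1.60 and 1.54 on rapamycin 1, 2 and 4, and 1.33, 1.39 and 1.53 on DMSO 1, 3 and 4, with 1.71 and 1.27 on PP242 1 and 4, -0.91 on rapamycin 3 and 0.90 on DMSO 2. PP242 and DMSO were apart on the 8 arrays and overlapped on 12, since PP242 4 lay below DMSO 1, 3 and 4. The difference was 0.66 ± 0.10 (limma adjusted p = 0.00463) and 0.50 ± 0.53 on 12 arrays.

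Ift46 measured 4.37 and 4.40 on PP242 2 and 3, 4.11, 4.12 and 3.94 on rapamycin 1, 2 and 4, and 4.01, 3.92 and 3.71 on DMSO 1, 3 and 4, with 4.10 and 3.86 on PP242 1 and 4, 1.93 on rapamycin 3 and 3.74 on DMSO 2. Again PP242 4 fell within the DMSO range. The difference was 0.50 ± 0.12 (limma adjusted p = 0.0254) and 0.34 ± 0.45 on 12 arrays.

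Ift80, a peripheral IFT-B subunit mutated in a skeletal ciliopathy in humans, went the other way. It measured 0.18 and 0.22 on PP242 2 and 3, 0.25, 0.42 and 0.69 on rapamycin 1, 2 and 4, and 0.67, 0.88 and 0.91 on DMSO 1, 3 and 4, with 0.22 and 0.09 on PP242 1 and 4, -1.47 on rapamycin 3 and 0.30 on DMSO 2. Every PP242 array lay below every DMSO array. The gene fell by 0.62 ± 0.15 (1.54-fold, limma adjusted p = 0.0274), and a much dimmer second probe gave -0.85 ± 0.25; on 12 arrays the difference was -0.52 ± 0.42.

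In IFT-A, Ift122 rose and Ift43 and Ift140 did not pass. Ift122, a core subunit of the complex, measured 1.89 and 2.03 on PP242 2 and 3, 1.40, 1.44 and 1.49 on rapamycin 1, 2 and 4, and 1.03, 1.09 and 1.45 on DMSO 1, 3 and 4, with 1.63 and 1.52 on PP242 1 and 4, 0.20 on rapamycin 3 and 0.82 on DMSO 2. All PP242 arrays were above all DMSO arrays. It was higher by 0.78 ± 0.15 (1.71-fold, limma adjusted p = 0.0107), and by 0.67 ± 0.32 on 12 arrays (limma adjusted p = 0.568).

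Dync2h1, the heavy chain of the motor that returns trains to the base, measured 0.43 and 0.42 on PP242 2 and 3, -0.13, 0.06 and 0.25 on rapamycin 1, 2 and 4, and -0.44, -0.14 and 0.02 on DMSO 1, 3 and 4, with 0.06 and -0.12 on PP242 1 and 4, -1.29 on rapamycin 3 and -0.76 on DMSO 2. PP242 and DMSO were apart on the 8 arrays and overlapped on 12. The difference was 0.61 ± 0.17 (limma adjusted p = 0.0426) and 0.53 ± 0.36 on 12 arrays. Of its 5 other probes, 3 well above background on all 8 arrays gave 0.41, 0.41 and 0.63, and a dim one gave 0.47 ± 1.03.

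Of the BBSome, Bbs4 rose and showed the largest difference of the 30 genes. Bbs4, the subunit known to bind the centriolar satellite protein PCM1, measured 0.72 and 0.82 on PP242 2 and 3, -0.51, -0.39 and -0.74 on rapamycin 1, 2 and 4, and -0.57, -0.69 and -0.96 on DMSO 1, 3 and 4. The arrays with raised dim probes gave 0.58 and 0.43 for PP242 1 and 4, -0.39 for rapamycin 3 and -0.70 for DMSO 2. All 4 PP242 arrays lay above all 8 others. The difference from DMSO was 1.51 ± 0.16 (2.85-fold, limma adjusted p = 0.00145), a dimmer second probe gave 1.27 ± 0.17, and 12 arrays gave 1.37 ± 0.21 (limma adjusted p = 0.0218).

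Bbs2, another BBSome subunit, is singled out after its values were seen, because it lay just past the threshold. It measured -1.12 and -0.96 on PP242 2 and 3, -1.91, -1.98 and -1.42 on rapamycin 1, 2 and 4, and -2.47, -2.33 and -1.52 on DMSO 1, 3 and 4, with -1.28 and -0.84 on PP242 1 and 4, -0.87 on rapamycin 3 and -2.37 on DMSO 2. PP242 was above DMSO on all 12 arrays, and DMSO 4 lay well above the other DMSO arrays. The difference of 1.07 ± 0.31 did not pass (limma adjusted p = 0.0503), and 12 arrays gave 1.12 ± 0.32 (limma adjusted p = 0.187). Bbs5, Bbs7 and Bbs9 differed by -0.10, -0.00 and -0.04 and Ttc8 by 0.40 ± 0.18, none of which passed. A second probe of Bbs7 gave -0.55 ± 0.17, so its probes disagreed. Bbs12, a chaperonin-like protein of BBSome assembly, gave -0.41 ± 0.22.

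At the transition zone 1 gene rose, 1 fell and 4 did not pass. Tctn1, a tectonic-family protein of the gate, measured -0.51 and -0.50 on PP242 2 and 3, -0.88, -0.70 and -0.83 on rapamycin 1, 2 and 4, and -1.09, -1.07 and -1.01 on DMSO 1, 3 and 4, with -0.71 and -0.97 on PP242 1 and 4, -2.14 on rapamycin 3 and -1.33 on DMSO 2. Every PP242 array lay above every DMSO array. It was higher by 0.55 ± 0.09 (1.46-fold, limma adjusted p = 0.0074), and by 0.45 ± 0.32 on 12 arrays (limma adjusted p = 0.791).

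Cep290, a long protein that links the gate's microtubules to its membrane, measured -2.65 and -2.86 on PP242 2 and 3, -2.32, -2.18 and -1.75 on rapamycin 1, 2 and 4, and -2.21, -2.02 and -2.06 on DMSO 1, 3 and 4, with -2.43 and -2.23 on PP242 1 and 4, -1.63 on rapamycin 3 and -2.54 on DMSO 2. PP242 and DMSO were apart on the 8 arrays only. The fall of 0.65 ± 0.18 on the brightest probe (limma adjusted p = 0.0428) had no counterpart on the second probe, which gave -0.04 ± 0.15, and 12 arrays gave -0.33 ± 0.25. Ahi1, Cc2d2a, Tctn2 and Rpgrip1l, also of the gate, gave 0.38, 0.15, -0.02 and -0.16 and did not pass. Tulp3, which brings receptors into the cilium by way of IFT-A, and Arl13b, a small GTPase of the ciliary membrane, gave -0.20 ± 0.09 and -0.19 ± 0.18 and did not pass.

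**Figure D1:**
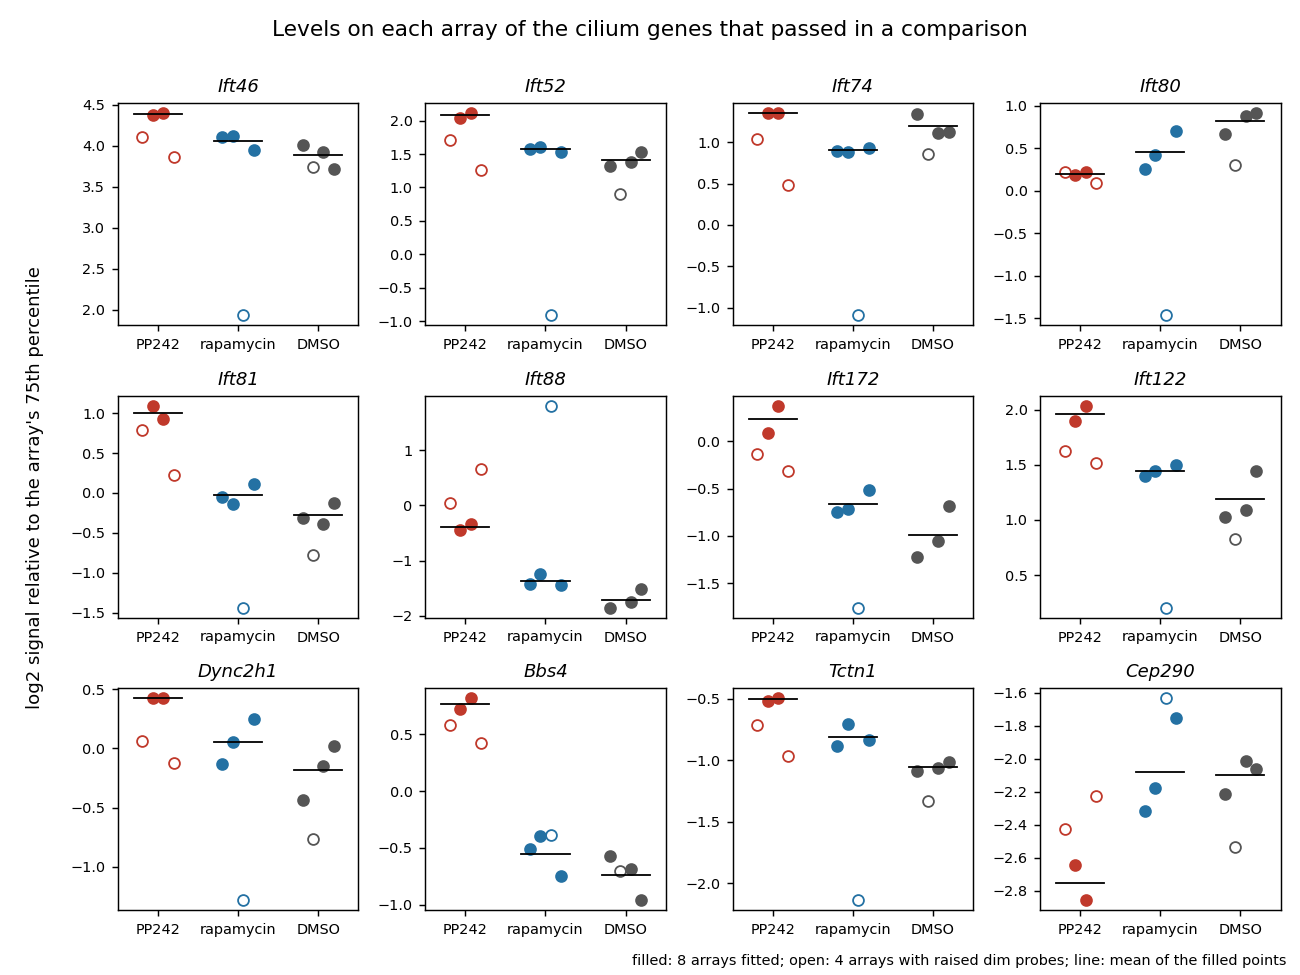
Level on each array (vertical axis, log2 signal relative to the array's 75th percentile) of the 12 cilium genes that passed in any comparison, by treatment; filled points are the 8 arrays fitted, open points the 4 arrays with raised dim probes, and lines the mean of the filled points. For Bbs4, Ift81, Ift172 and Ift122 the PP242 points lie above all others, whereas the open rapamycin point of most genes lies far from its group.

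The plot of levels by array shows that the filled points within a treatment usually lie close together, and that the largest departures are those of rapamycin 3. The 3 brightest genes that passed in no comparison were Ift27, Ift43 and Ift20. Ift27, a Rab-like GTPase that links IFT-B with the BBSome, measured 4.01 and 3.94 on PP242 2 and 3, 3.96, 3.89 and 4.13 on rapamycin 1, 2 and 4, and 3.83, 3.67 and 3.86 on DMSO 1, 3 and 4. PP242 stood slightly above DMSO, by 0.19 ± 0.11. Ift43, an IFT-A subunit, measured 3.59 and 3.59 on PP242 2 and 3, 3.60, 3.69 and 3.79 on rapamycin 1, 2 and 4, and 3.30, 3.24 and 3.76 on DMSO 1, 3 and 4. Ift20, an IFT-B subunit that also sits at the Golgi, measured 2.72 and 2.80 on PP242 2 and 3, 2.97, 2.94 and 2.91 on rapamycin 1, 2 and 4, and 2.77, 2.81 and 3.17 on DMSO 1, 3 and 4. The PP242 and DMSO arrays overlapped for Ift43 and for Ift20, with differences of 0.15 ± 0.17 and -0.16 ± 0.14. The 19 genes that did not pass ranged from -0.41 to 1.07.

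The 12 arrays lay on 3 slides, each with all 3 treatments, but of the 8 arrays slide 2 held no DMSO and slide 3 no PP242, so PP242 and DMSO met on slide 1 alone. Within slides 1, 2 and 3, over all 12 arrays, the median difference between PP242 and DMSO of the 30 genes was 0.14, 0.32 and 0.01, against -0.03, 0.07 and 0.37 for all genes. Each of the 11 genes that passed kept its sign on every slide with a value, which on slides 2 and 3 rests on arrays with raised dim probes. The genes were chosen on arrays of these same slides, so a kept sign is no separate support. Cep290 on slide 2 differed by only -0.005. With slide as a block on the 8 arrays, Ift81 (limma adjusted p = 0.024), Ift88 (0.0302) and Bbs4 (0.0321) passed, 3 higher and 0 lower, against 3.48% and 3.76% of all genes. Each of these 3 also passed when any of the 8 arrays was left out. Leaving out PP242 2 gave 5 higher genes (4.58% of all genes), and leaving out PP242 3 gave 3 (4.43%). The count of lower genes was 1 without DMSO 1 (9.56% of all genes). It was 0 without DMSO 3, DMSO 4 or rapamycin 2, against 9.72%, 12.8% and 11% of all genes. Over the 8 fits that each left out 1 array, Ift80 passed in 3 and Cep290 in 2. None of those was a fit without PP242 2 or PP242 3, which leave 1 PP242 array.

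PP242 was next compared with rapamycin, which asks whether the ATP-site inhibitor moved the cilium genes further than rapamycin did. On the 8 arrays 6 of the 30 genes were higher with PP242 (20%) and 0 lower, against 6.73% and 7.34% of all genes, and the median difference was 0.12 (0.39 on 12 arrays, where that of all genes was 0.23). The 6 were Bbs4 and the IFT-B genes Ift81, Ift88, Ift172, Ift52 and Ift74. On 12 arrays 0 passed in limma, and 0% of all genes did in either direction. An unadjusted p under 0.05 was seen for 10 of the 30 on the 8 arrays (29.1% of all genes) and for 4 on 12 (3.97%).

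Bbs4 differed between PP242 and rapamycin by 1.32 ± 0.16 (2.5-fold, limma adjusted p = 0.00448) and Ift81 by 1.03 ± 0.13 (2.04-fold, limma adjusted p = 0.00515). For Ift88 the difference was 0.97 ± 0.13 (limma adjusted p = 0.00669) on the 8 arrays and 0.55 ± 0.69 on 12. Ift172 and Ift52 were higher by 0.89 ± 0.19 (limma adjusted p = 0.028) and 0.51 ± 0.10 (limma adjusted p = 0.0199). Of all 30 genes, 5 had PP242 above rapamycin on all 12 arrays without overlap (2.14% of all genes), among them Bbs4, Ift81 and Ift172.

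Ift74, the partner of Ift81, passed here and not between PP242 and DMSO. It measured 1.35 and 1.35 on PP242 2 and 3, 0.89, 0.88 and 0.94 on rapamycin 1, 2 and 4, and 1.34, 1.11 and 1.12 on DMSO 1, 3 and 4, with 1.04 and 0.49 on PP242 1 and 4, -1.09 on rapamycin 3 and 0.86 on DMSO 2. On the 8 arrays rapamycin lay below both other groups, and PP242 lay just above DMSO. PP242 exceeded rapamycin by 0.45 ± 0.10 (limma adjusted p = 0.0362), and PP242 minus DMSO was 0.16 ± 0.10. Rapamycin minus DMSO was -0.29 ± 0.09, which did not pass (limma adjusted p = 0.281). With slide as a block, 1 gene was higher, Ift81 (limma adjusted p = 0.0488), against 0.836% of all genes. Without PP242 2, and likewise without PP242 3, 1 gene was higher (0.77% and 0.78% of all genes). Without rapamycin 1, and likewise without rapamycin 2, 3 were (3.13% and 3.28%).

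Rapamycin was then compared with DMSO. None of the 30 genes passed on the 8 arrays, where 0.0357% of all genes were higher and 0.0204% lower, and none on 12 arrays, where 0% were. At an unadjusted p under 0.05 there were 4 on the 8 arrays (13.2% of all genes) and 0 on 12 (2.05% of all genes). The differences ran from -0.36 to 0.34, 26 of the 30 were within 0.3 of 0, and the median was 0.07 against -0.02 for all genes. That median was 0.0031 without DMSO 1, 0.15 without DMSO 4, -0.03 with median centring and -0.05 on all 12 arrays, so its sign depended on these choices. Standard errors were 0.08 to 0.28. The 4 were Ift88 (0.34 ± 0.12), Tctn1 (0.25 ± 0.08), Ift74 (-0.29 ± 0.09) and Ift80 (-0.36 ± 0.14). With all 12 arrays weighted by their quality, 7 of the 30 genes were called higher and 2 lower, against 8.4% and 7.07% of all genes. For 10 of the 11 genes that passed between PP242 and DMSO, the rapamycin mean on the 8 arrays lay between the other 2 means; Cep290 was the exception. The rapamycin and PP242 comparisons share the DMSO arrays, and the 11 genes were chosen for a gap between PP242 and DMSO. These positions are therefore given as values only.

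**Figure D2:**
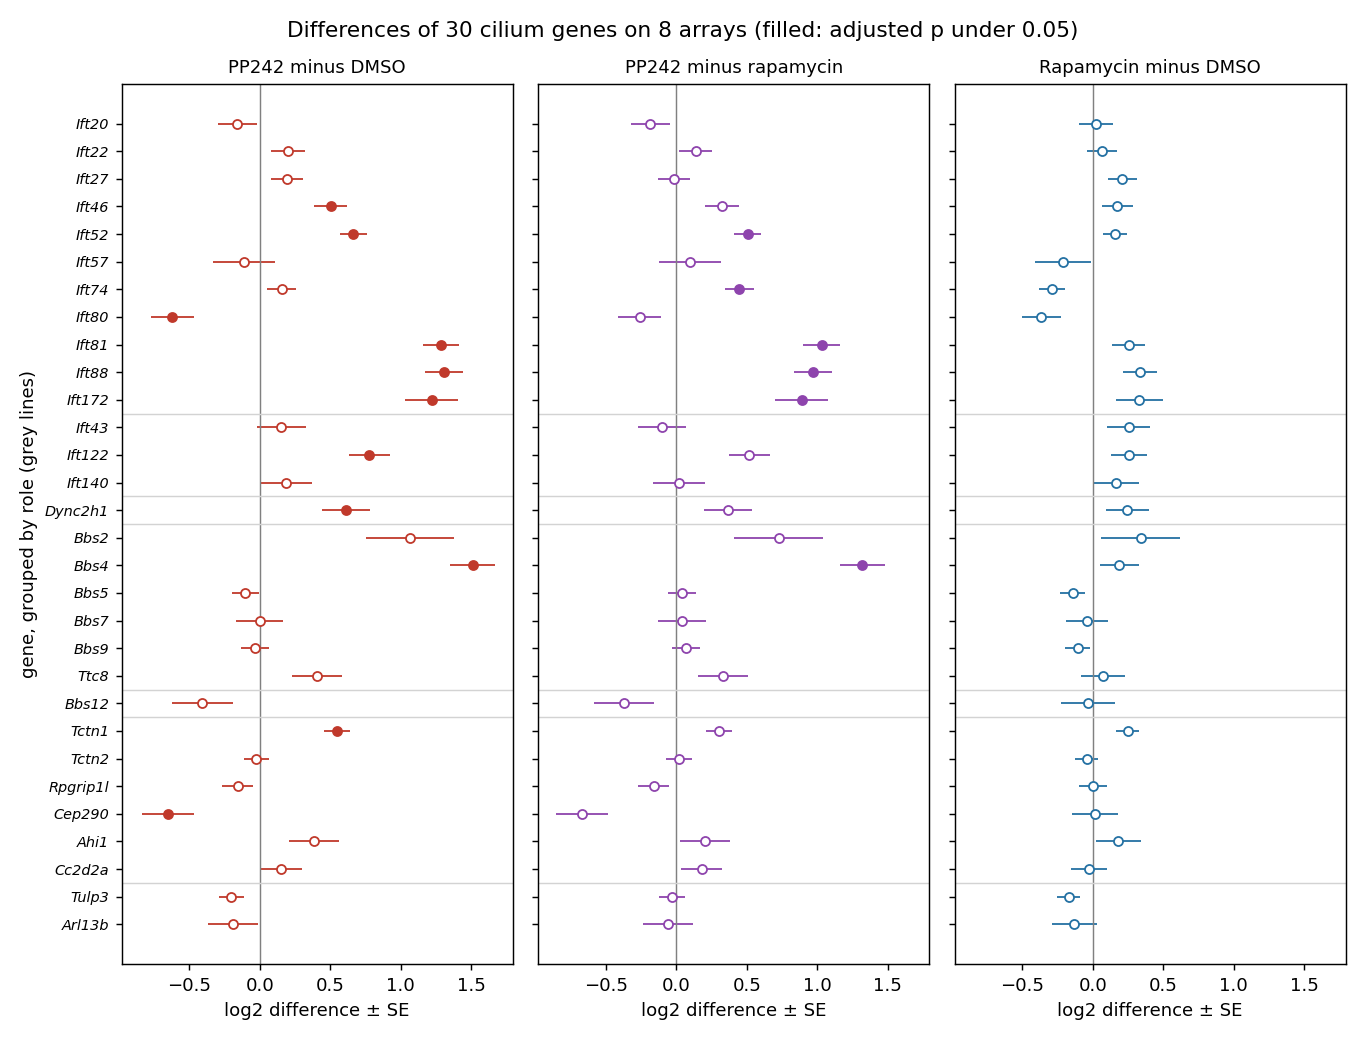
Log2 difference ± SE (horizontal axis) of each of the 30 cilium genes on the 8 arrays, for PP242 minus DMSO, PP242 minus rapamycin and rapamycin minus DMSO; genes run down the page by role and filled points have an adjusted p under 0.05. Filled points number 11, 6 and 0 in the 3 panels, and the rapamycin panel spans -0.36 to 0.34.

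In the plot of differences by role, the largest positive values of PP242 minus DMSO belong to a few IFT-B genes and to Bbs4 and Bbs2. The 6 transition zone genes run from -0.65 to 0.55 there, and the 2 of membrane traffic gave -0.20 and -0.19. The 4 arrays with raised dim probes moved levels differently by gene. On rapamycin 3 the median level of the 30 genes was -0.99, against -0.14 to 0.16 on the other rapamycin arrays, while the median over all genes there was -0.89 against -2.35 to -2.28. Over 12 arrays the median of all genes between PP242 and DMSO was 0.33 and that of the 30 genes 0.13. All 11 genes that passed on the 8 arrays had the same sign on 12, but the 12 include the 8 on which they were chosen. Of these, 6 of the 9 higher ones and 1 of the 2 lower ones had groups that did not overlap on 12. Over all 30 genes 7 were apart upward on 12 arrays (23801 genes tested, of which 9.75% were apart upward) and 1 downward (9.97%).

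**Figure D3:**
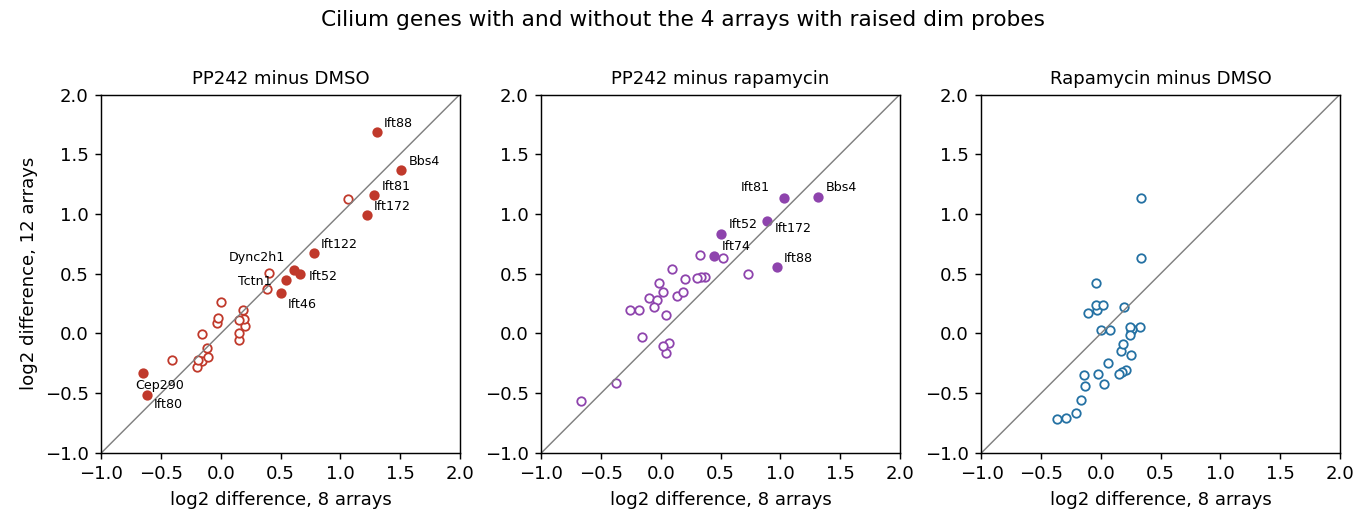
Log2 difference of each cilium gene on the 8 arrays (horizontal axis) and on all 12 (vertical axis) in the 3 comparisons, with the line of equality; filled, named points had an adjusted p under 0.05 on the 8 arrays. Points lie off the line in each panel, and those of rapamycin minus DMSO run from -0.72 to 1.13 on 12 arrays.

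Between the 8 and the 12 arrays, called values of PP242 minus DMSO moved as well: Cep290 gave -0.65 and -0.33, Ift88 gave 1.31 and 1.69, and Ift46 gave 0.50 and 0.34. The sign was the same in both for all 11 called genes, which were chosen on 8 of the 12, and for 15 of the 19 others. For rapamycin minus DMSO it was the same for 17 of the 30.

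Other cilium genes, listed by role, were examined beside the 30. Between PP242 and DMSO, 12 of 50 were higher, 6 lower and 32 did not pass, with a median of 0.06, where 12.9% of all genes were higher and 13.3% lower. Remaining IFT subunits and their motors had 7 higher and 0 lower of 15 tested. Among them Wdr19, an IFT-A core subunit, measured 1.60 and 1.61 on PP242 2 and 3, 0.43, 0.48 and 0.51 on rapamycin 1, 2 and 4, and 0.17, 0.41 and 0.43 on DMSO 1, 3 and 4. PP242 stood clear of both other groups, and the difference from DMSO was 1.27 ± 0.11 (limma adjusted p = 0.000815). Dync2i2, an intermediate chain of dynein-2, rose by 1.14 ± 0.09 and Hspb11, the IFT-B subunit also called IFT25, by 0.90 ± 0.12. The brightest that did not pass were Dynlrb1, a dynein light chain, with 0.06 ± 0.10, and Cluap1, an IFT-B subunit, with 0.26 ± 0.23.

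The other lists were mixed, and with so few genes their counts are read only beside the same 12.9% and 13.3% of all genes. Of 9 BBS and cargo-sorting genes 2 were higher and 2 lower: Unc119, a carrier of lipidated proteins, rose by 1.02 ± 0.11, Inpp5e, a ciliary phosphatase, rose by 0.41 ± 0.08, Rab23 fell by 0.55 ± 0.09 and Mkks, a BBS chaperonin, fell by 0.51 ± 0.10. Of 14 further transition zone genes 2 were higher, Nek8 (1.35 ± 0.22) and Invs (1.05 ± 0.16), which belong to the inversin compartment, and B9d2 and Tmem107 were lower. Of 12 basal body genes Ofd1 rose by 0.79 ± 0.10, and Poc1a and Cby1 fell by 1.20 ± 0.14 and 0.93 ± 0.13. On 12 arrays none of these 50 passed (9 of 51 tested had an unadjusted p under 0.05, against 9.58% of all genes).

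Suppressors of ciliation and factors of disassembly, which act in cycling cells, had 6 lower and 2 higher of 10. Of all genes 13.3% were lower and 12.9% higher. On 12 arrays 0 of the 10 passed, where 0.0588% of all genes were lower and 0.382% higher. There 4 of the 10 had an unadjusted p under 0.05, against 9.58% of all genes. Aurka, the kinase that starts cilium resorption and also acts in mitosis, measured 2.19 and 2.21 on PP242 2 and 3, 4.18, 4.18 and 4.49 on rapamycin 1, 2 and 4, and 4.74, 4.67 and 4.37 on DMSO 1, 3 and 4. The PP242 arrays lay far below every other one of the 8. The gene fell by 2.39 ± 0.16 against DMSO, and Plk1 and Kif24 fell by 2.16 ± 0.16 and 1.81 ± 0.10. Tchp and Nedd9 rose by 0.96 ± 0.10 and 0.83 ± 0.15. Nedd9 is known as a scaffold that activates the Aurka kinase.

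All 16 cell cycle genes were lower with PP242 than with DMSO (median -1.87) and than with rapamycin (median -1.60). Of all genes, 13.3% and 7.34% were lower in these 2 comparisons. Between rapamycin and DMSO 0 of the 16 passed, where 0.0204% of all genes were lower. An unadjusted p under 0.05 was seen for 6 of the 16 (13.2% of all genes), and the median was -0.26. Tk1, thymidine kinase, measured 2.56 and 2.60 on PP242 2 and 3, 4.62, 4.69 and 4.58 on rapamycin 1, 2 and 4, and 4.91, 4.88 and 4.88 on DMSO 1, 3 and 4. On 12 arrays none of the 16 passed, although 14 had an unadjusted p under 0.05 between PP242 and DMSO, against 9.58% of all genes. Of 9 quiescence genes 1 rose with PP242, the cyclin Ccng2, by 1.35 ± 0.22, where 12.9% of all genes were higher. On 12 arrays 0 of 10 quiescence genes tested passed. Any part of the lower cell cycle RNA in the rise of the cilium genes was not tested. RNA levels do not show whether fewer cells were dividing or more cells carried a cilium.

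**Figure D4:**
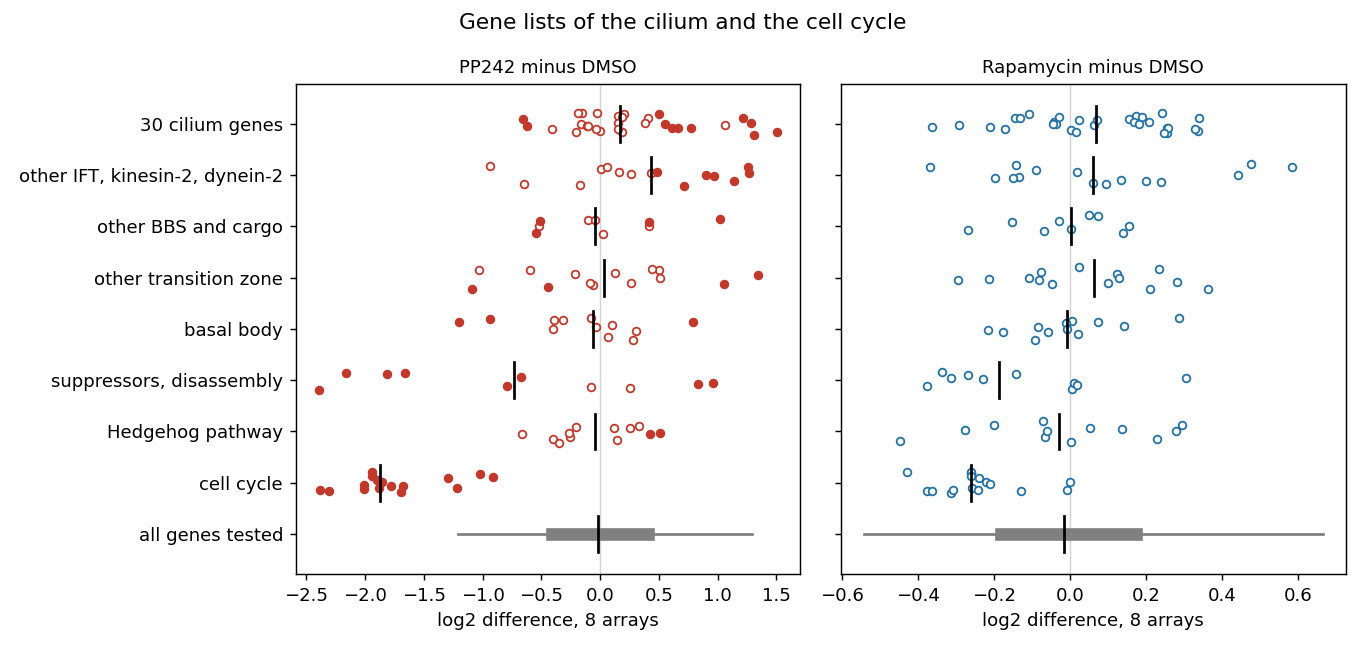
Log2 difference of each tested gene (horizontal axis) by list, for PP242 minus DMSO and rapamycin minus DMSO on the 8 arrays, which have different horizontal scales; filled points have an adjusted p under 0.05, black ticks are medians, and the bars at the bottom span the 25th to 75th (thick) and 5th to 95th (thin) percentiles of all genes tested. The cell cycle genes centre on -1.87 with PP242 and -0.26 with rapamycin, and the cilium genes on 0.17 and 0.07.

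In the plot of gene lists the cilium genes spread on both sides of 0 with PP242, unlike the cell cycle genes, which all lie below it. Of 12 Hedgehog pathway genes Sufu, a repressor of GLI factors, rose by 0.51 ± 0.14 and Evc2, a ciliary modulator of Smoothened, by 0.43 ± 0.09. The other 10 did not pass. Of all genes 12.9% were higher and 13.3% lower. On 12 arrays 0 of 13 Hedgehog genes tested passed. Gli1, the pathway's own target, was below the filter on dim probes. None of 6 RFX and FOXJ1 regulators tested passed, and Foxj1, the master regulator of motile cilia, was also below the filter. Of 14 markers of motile ciliated cells 11 had a probe and 4 exceeded background clearly on each of the 8. Among 6 tested 1 passed, Spag6, which rose by 2.65 ± 0.19, where 12.9% of all genes were higher. On 12 arrays 0 of 8 such markers tested passed. The log2 summed level of these markers was -1.01 to -0.9997 on PP242 2 and 3, -1.33 to -1.30 on rapamycin 1, 2 and 4 and -1.54 to -1.33 on DMSO 1, 3 and 4, and their part in the changes of the cilium genes was not tested.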

How the data were processed

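Per the file headers, the deposited per-spot intensity is a linear signal from which Agilent Feature Extraction had subtracted background within the array (version 10.5.1.1; the submitters' processing notes give 10.1). The log2 table that the authors deposited for these arrays served as an alternative only. Log2 intensity minus the array's 75th percentile was computed, control spots and non-uniform or population outlier spots were left out (1.52% of values), spots of a probe were averaged, and a probe was kept if 2 or more of the 8 arrays (4 of 12) marked it well above background, with the brightest probe standing for its gene. RefSeq accessions of the design were matched to symbols for 24844 of 26382 probes with one. Limma 3.58.1 in R 4.3.3 (lmFit, eBayes) was fitted to all 3 groups together. The figures were drawn with matplotlib 3.10.9, and numpy 2.4.6 and pandas 2.3.3 under Python 3.11.15 handled the tables. The 8 arrays have a ratio of the 75th to the 25th percentile above 100. The number of arrays limits the precision.

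The members and lists, the choice of 8 arrays and the tests were chosen with earlier results of these data known. Named genes are members that passed in any comparison, the 3 brightest that passed in none, and in each list up to 3 passing genes by adjusted p and up to 2 others by level, not all of which are printed. Alternatives were all 12 arrays with and without array weights, quantile normalization, median centring, normexp (offset 50, on the median spot signal), the deposited log2 table, 2 other filters, the mean of a gene's probes, only the groups compared, slide or replicate block, and leaving out each array. The fit of every probe of a member, and on 12 arrays the slide block and leaving out each array, were added after seeing the data.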

Additional observations from a re-analysis of the deposited data

Results flagged for a closer look

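In 21 of 88 gene and treatment groups of 4 arrays, 1 array stood far from the other 3; chance alone marks about 5% of such groups, and the groups share arrays. In 18 of the 21 it was rapamycin 3, an array with raised dim probes. There it was the lowest for Ift20 (0.71), Ift22 (-1.10), Ift27 (1.71), Ift46 (1.93), Ift52 (-0.91), Ift74 (-1.09), Ift81 (-1.44), Ift43 (1.54), Ift122 (0.20), Bbs5 (-1.37), Ttc8 (-0.42), Tctn1 (-2.14), Ahi1 (-1.73), Cc2d2a (-2.69) and Tulp3 (-0.49). It was the highest for Ift88 (1.81), Bbs9 (0.0014) and Tctn2 (-0.51). The other 3 were Bbs2 on DMSO 4 (highest, -1.52), Bbs9 on PP242 4 (highest, -0.46) and Rpgrip1l on DMSO 2 (lowest, -2.23). Of these, DMSO 4 alone is among the 8 arrays, and without it Bbs2 passed between PP242 and DMSO. That array was singled out for its high Bbs2 value, so the pass is no separate support. In that fit 12 of the 30 genes were higher, against 13.5% of all genes. All values are log2 levels relative to the 75th percentile of the array.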

How the results depend on the processing

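No gene that passed changed its sign under any alternative. The alternatives reuse the arrays on which these genes were chosen, so a kept sign is no separate support. Between PP242 and DMSO, 9 genes were higher and 2 lower, against 12.9% and 13.3% of all genes. On all 12 arrays these counts were 1 and 0 (0.382% and 0.0588% of all genes). They were 3 and 0 with slide as a block (3.48% and 3.76%) and 8 and 1 with the replicate block (10.9% and 9.35%). With the replicate block on 12 arrays they were 0 and 0, as for all genes (0%). The count of lower genes was 0 with no filter (5.69% of all genes) and 1 with the mean of a gene's probes (13%). Leaving out each DMSO or rapamycin array in turn gave 7 to 12 higher (8.83% to 15.7% of all genes) and 0 to 2 lower (9.56% to 15.6%). Between PP242 and rapamycin, 6 were higher and 0 lower, against 6.73% and 7.34% of all genes. The higher count was 0 on 12 arrays (0% of all genes), 11 with array weights (12.6%) and 3 with no filter (2.25%). It was 1 with slide as a block (0.836%), 2 with the replicate block (2.25%) and 0 with that block on 12 arrays (0%). Leaving out each DMSO or rapamycin array in turn gave 3 to 8 (3.13% to 8.74%). The lower count was 1, Cep290, with array weights (11.6% of all genes) and with quantile normalization (7.11%). It was also 1, again Cep290, with normexp (6.53%) and with the filter on all fitted arrays (10.3%). Between rapamycin and DMSO the counts of 0 became 7 higher and 2 lower with array weights (8.4% and 7.07% of all genes). They stayed 0 when each DMSO or rapamycin array was left out. The weight of rapamycin 3 was 0.0203. With median centring the higher counts were 6 and 4 (8.48% and 4.09% of all genes), within 1.5 times of 9 and 6. The causes were not tested, apart from the smaller number of arrays, or the greater number of genes tested, that some alternatives have by construction. Over all 12 arrays, deviations from the group means were correlated between samples of the same number, with values from -0.898 to 0.788. In 2 of 12 pairs the same number gave the highest. These deviations include the 4 arrays with raised dim probes, so the check cannot decide whether samples of the same number belong together. The main fit did not pair them. With 2 PP242 arrays among the 8, each call rests on a spread shared with the other groups.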
